A study of Mus musculus with 7 samples.

Results

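The 10 genes described here mark the fibroblasts of the dermis: Pi16, Clec3b, Dpt and Cd34, found in adventitial and reticular fibroblasts, the surface proteases Dpp4 and Fap, the mesenchymal transcription factors Twist1, Twist2 and Prrx1, and the retinoid carrier Crabp1. They were taken from the array by the gene symbols of its platform annotation, and 10 of 10 were found, each as 1 probe set, among 23185 named genes. The arrays measured whole lesional skin of male C57BL/6 mice, 9 weeks old and given bleomycin for 3 weeks. Of the 7 arrays, 4 are labelled ox40l-/-, called knockout here, and 3 ox40l+/+, called wild type, and the series' design counts as many mice of each genotype. OX40L, the product of Tnfsf4, is a costimulatory ligand for T cells, and bleomycin is used to induce fibrosis of mouse skin. Every sample had bleomycin, so no value here shows what bleomycin itself did. The labels give neither the deleted part of the gene nor a cell type for the deletion. Tnfsf4 itself was dim, at 3.35, 2.82, 2.81 and 2.81 in knockout and at 2.53, 2.60 and 3.65 in wild type. The genotypes overlapped (difference 0.02, SE 0.31), so these values do not check the labels.

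Dermal fibroblasts arise from mesenchymal precursors in which factors such as Prrx1 and the Twist proteins are active, and they settle into papillary cells below the epidermis and reticular cells in the deeper dermis. Pi16 and Dpp4 together mark fibroblasts of the vessel adventitia and fascia that act as a reserve for other fibroblasts, and Dpp4 also marks cells that deposit scar collagen in mouse skin. Cd34 and Dpp4 are not exclusive to fibroblasts: Cd34 is also made by endothelium, hair follicle bulge cells and mast cells, and Dpp4 by activated T cells. Crabp1 is also a gene of the dermal papilla, the fibroblast cluster at the base of the hair follicle.

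Promoters are shown for Prrx1 and Cd34, the pair of members with the highest correlation across the arrays, and for Dpt, the member with the widest spread of values. Each sequence runs 5′ to 3′ from 250 bases before to 50 bases after the annotated start and is from RefSeq, build GRCm38.p6. Capitals mark each CANNTG, the E-box core that Twist proteins and other basic helix-loop-helix factors recognise, each TAATTA, a core of homeodomain factors such as Prrx1, and each TATAAA.

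Dpt, chr1:164796413-164796712, plus strand: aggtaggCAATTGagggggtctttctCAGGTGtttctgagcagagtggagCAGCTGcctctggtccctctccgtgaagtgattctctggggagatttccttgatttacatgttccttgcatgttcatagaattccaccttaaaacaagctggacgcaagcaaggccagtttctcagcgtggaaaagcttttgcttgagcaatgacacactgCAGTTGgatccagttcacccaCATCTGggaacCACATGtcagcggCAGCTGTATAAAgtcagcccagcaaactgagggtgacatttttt

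Cd34, chr1:194938571-194938870, plus strand: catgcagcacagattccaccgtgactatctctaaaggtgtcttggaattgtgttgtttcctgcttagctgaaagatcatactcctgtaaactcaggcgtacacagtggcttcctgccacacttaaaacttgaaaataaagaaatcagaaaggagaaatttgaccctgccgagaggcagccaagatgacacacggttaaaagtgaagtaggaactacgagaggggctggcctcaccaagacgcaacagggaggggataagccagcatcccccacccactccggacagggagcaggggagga

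Prrx1, chr1:163313601-163313900, minus strand: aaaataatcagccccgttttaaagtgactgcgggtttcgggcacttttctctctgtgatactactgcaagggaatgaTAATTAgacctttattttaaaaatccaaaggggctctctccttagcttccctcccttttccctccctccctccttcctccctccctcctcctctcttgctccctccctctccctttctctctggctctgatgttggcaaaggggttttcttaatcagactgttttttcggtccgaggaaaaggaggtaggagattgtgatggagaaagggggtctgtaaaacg

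The Dpt window held 7 matches to CANNTG and those of Cd34 and Prrx1 held 0. Across 32851 promoters of this length, 72.3% held at least 1 match, the median was 1, and 0.177% held 7 or more. TAATTA, present in the Prrx1 window, was found in 5.29% of promoters, and TATAAA, present in the Dpt window, in 13.6%. Both strands were searched; the TATAAA of Dpt directly follows an E-box without overlap. Of the 8 members with a promoter in the table, Dpp4, Dpt and Pi16 held CANNTG, Prrx1 alone held TAATTA, and Dpp4, Dpt and Twist1 held TATAAA. Counted from the annotated start, TATAAA began at base 13 in Dpt, after the start, at -227 in Dpp4 and at -126 in Twist1. These matches describe the letters only.

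Both outer wild type arrays, replicates 1 and 3, stood apart from the rest: pairs that include either one had r of 0.761 to 0.914 over all probe sets, against 0.956 to 0.968 among the remaining 5 arrays. Their log2 values had an SD of 1.72 (replicate 1) and 1.22 (replicate 3), while the 5 alike arrays had 1.38 to 1.48. The tissue was skin by its markers on every array: Krt14, a basal keratin, lay between 9.54 and 10.94, Krt10, a suprabasal keratin, between 8.14 and 10.53, and the fibroblast proteoglycan Dcn between 8.29 and 10.09. Acta1, skeletal muscle actin, lay between 9.05 and 11.12. Krt14, Krt10 and Dcn each had their lowest value on wild type replicate 3. In such bulk samples fewer cells of a type and less RNA per cell cannot be told apart.

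None of the 10 fibroblast genes was called as different between genotypes. In limma, 0 of 10 passed an adjusted p under 0.05, where 0.00431% of all genes passed, and 0 of 10 had an unadjusted p under 0.05, where 1.88% of all genes did. The genotypes overlapped in every member, while they did not overlap in 1.91% of all genes. In knockout 5 members had a higher mean and 5 a lower one, with a median difference of 0.037 on the log2 scale against 0.0096 over all genes. The smallest unadjusted p among members was 0.156, for Twist1, and the adjusted p was 0.9995 for each. The plot of differences shows how wide the error was: the 95% interval reached beyond 1 log2 unit, a 2-fold difference, in 5 of 10 members. Those were Dpt, Pi16, Twist1, Crabp1 and Cd34.

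**Figure D1:**
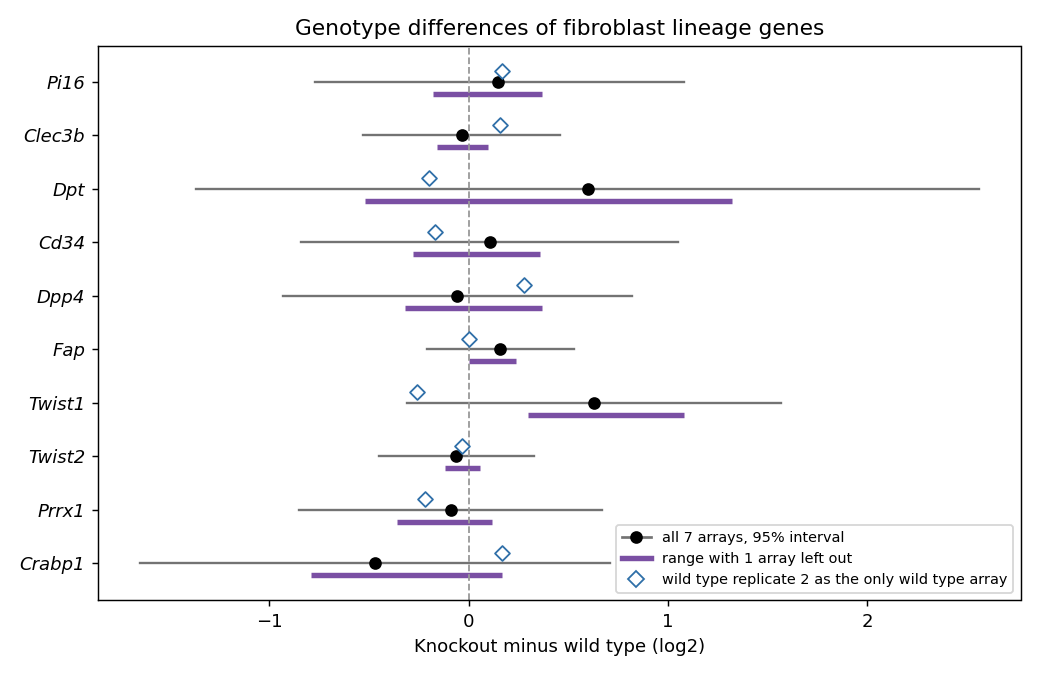
Difference between genotypes (knockout minus wild type, log2) for each fibroblast gene: black points with grey bars give limma's estimate and 95% interval from all 7 arrays, purple bars the range with 1 array left out, and open diamonds the value with wild type replicate 2 as the only wild type array. Every interval spans 0, and the purple bar spans or touches 0 in every gene except Twist1, whose diamond lies at -0.26 on the other side of 0 from its estimate of 0.63.

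Among the adventitial and reticular genes, Dpt had the widest spread. Dpt encodes dermatopontin, a small matrix protein that binds decorin and helps collagen fibrils assemble. Its log2 level was 6.60, 7.63, 7.70 and 7.78 on knockout replicates 1 to 4, and 8.26, 7.63 and 4.59 on wild type replicates 1 to 3. The highest and the lowest of the 7 values were thus both wild type, and knockout lay between them. Wild type replicate 2 was 8.20-fold above replicate 3 in this gene. The genotype difference was 0.60 (SE 0.84, 95% interval -1.37 to 2.56), with the knockout arrays at 7.43 ± 0.55 (mean ± SD, n = 4) and the wild type arrays at 6.83 ± 1.96 (n = 3). Without wild type replicate 3 it was -0.52 and without replicate 1 it was 1.32, so 1 array decided its sign.

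Cd34, a sialomucin of the cell surface, had a similar order of arrays. Its levels were 5.49, 6.04, 6.70 and 6.59 in knockout and 6.60, 6.38 and 5.31 in wild type. The low values were knockout replicate 1 and wild type replicate 3, 1 of each genotype. The difference was 0.11 (SE 0.40, interval -0.84 to 1.05), and it was -0.28 without wild type replicate 3 and 0.36 without replicate 1. Pi16, a secreted peptidase inhibitor, stood at 3.26, 3.75, 4.91 and 3.74 in knockout and at 4.17, 3.74 and 3.37 in wild type. Knockout replicate 3 was its highest array and knockout replicate 1 its lowest, so the knockout values enclosed the wild type ones. The difference was 0.15 (SE 0.39, interval -0.77 to 1.08), and it turned to -0.18 without knockout replicate 3. Clec3b, which encodes the plasminogen-binding protein tetranectin, varied less, with 3.58, 4.03, 4.33 and 3.95 in knockout and 3.95, 3.82 and 4.26 in wild type. Its difference was -0.035 (SE 0.21, interval -0.53 to 0.46), and wild type replicate 3 was near the top of its range, where it was at the bottom for Dpt and Cd34.

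**Figure D2:**
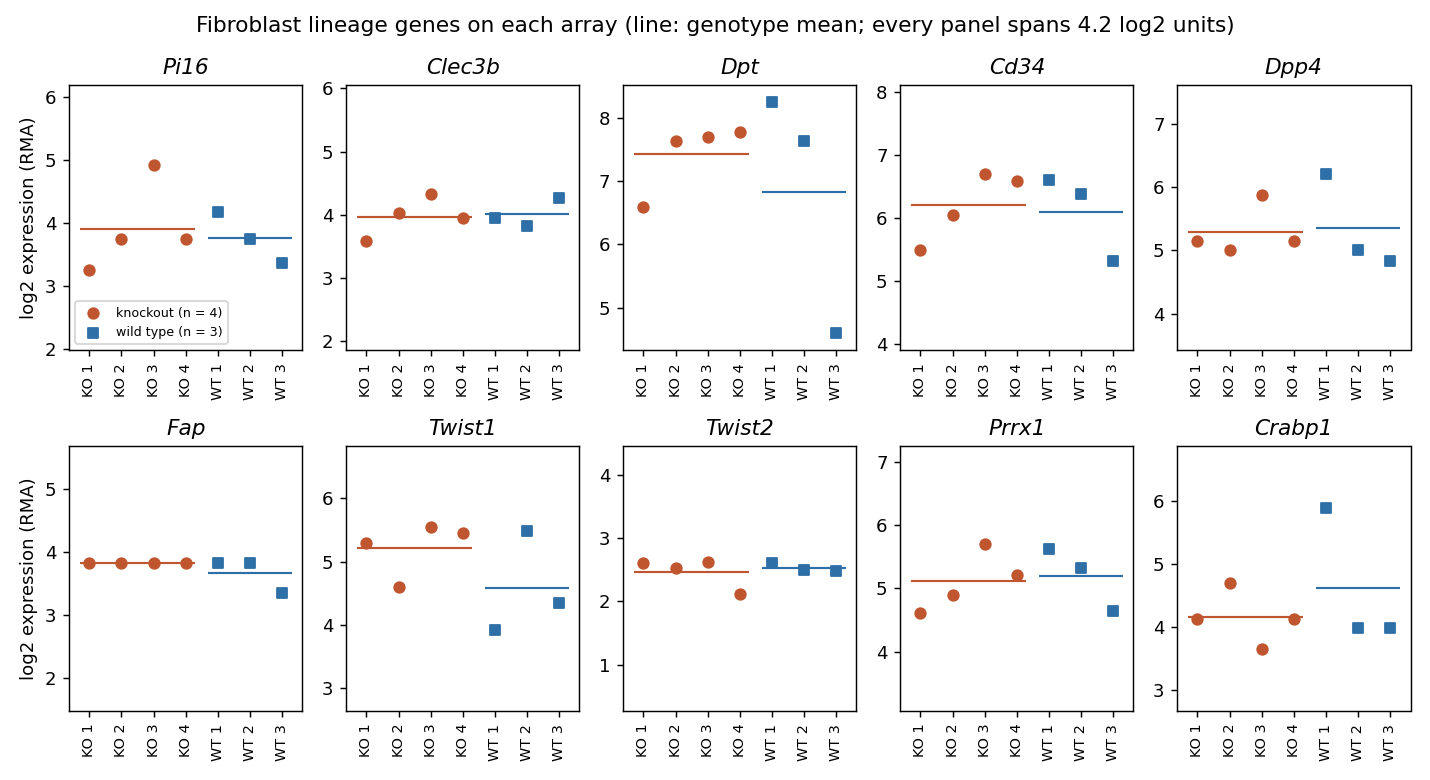
Log2 expression of each fibroblast gene on the 7 arrays, with knockout (KO, orange circles, n = 4) and wild type (WT, blue squares, n = 3) and a line at each genotype mean; every panel spans the same number of log2 units. Dpt runs from 4.59 on WT 3 to 8.26 on WT 1, Crabp1 stands at 5.89 on WT 1 against 3.65 to 4.69 elsewhere, and Fap has 1 value on 6 arrays.

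Dpp4 and Fap are related serine proteases of the cell surface that cleave after proline, and Fap is best known from activated fibroblasts in wounds, tumours and fibrosis. Dpp4 stood at 5.15, 5.0, 5.88 and 5.15 in knockout and at 6.21, 5.01 and 4.83 in wild type. Both genotypes had 1 high array, knockout replicate 3 and wild type replicate 1, and the other 5 values lay between 4.83 and 5.15. The difference was -0.057 (SE 0.37, interval -0.93 to 0.82), and it was -0.32 or 0.37 when wild type replicate 3 or 1, in that order, was left out. Fap had the identical value of 3.82 on 6 arrays and 3.34 on wild type replicate 3. Its whole difference of 0.16 (SE 0.16, interval -0.21 to 0.53) came from that array, and without it the difference was 0. Identical values on several arrays are usual when RMA summarises a probe set by median polish, and 5 of the 10 members shared a value between at least 2 arrays, as did 54.3% of all genes. A single value on 6 or more arrays was rarer, at 0.561% of genes, so the Fap values carry little information on genotype. In the RefSeq gene table (GRCm38.p6) Dpp4 and Fap lie on chromosome 2 with 1 protein-coding gene, Gcg, between them.

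The wider family of proline-cleaving peptidases also showed 0 called genes. Of 7 measured, 2 had a higher and 5 a lower mean in knockout, with a median difference of -0.11. Prep, a cytosolic prolyl endopeptidase, differed by -0.45 (SE 0.49) and stood at 5.75 on wild type replicate 1, with all other arrays at 3.52 to 4.00. Dpp7, Dpp9 and Dpp10 differed by -0.11, -0.11 and -0.23, with SE of 0.12, 0.13 and 0.29.

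Twist1, a transcription factor, had the largest difference of the 10 genes. Twist1 and Twist2 are close relatives that keep mesenchymal precursors from maturing. Twist1 stood at 5.29, 4.59, 5.55 and 5.45 in knockout and at 3.92, 5.48 and 4.35 in wild type. Wild type replicate 1, the array highest in Dpt, Dpp4 and Crabp1, was the lowest in Twist1, whereas wild type replicate 2 was level with the upper knockout arrays. The difference was 0.63 (SE 0.40, interval -0.31 to 1.57). It stayed between 0.30 and 1.08 with 1 array left out, but with wild type replicate 2 as the only wild type array it was -0.26. Without that replicate the 2 remaining wild type arrays both lay below the 4 knockout arrays. Twist2 was dim, with 2.60, 2.53, 2.62 and 2.11 in knockout and 2.60, 2.50 and 2.48 in wild type, all below the median of all values, 3.60. Its difference was -0.063 (SE 0.17, interval -0.45 to 0.33), and knockout replicate 4 stood below the other 6 arrays.

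Prrx1, a homeodomain factor of limb and skin mesenchyme, stood at 4.61, 4.90, 5.71 and 5.21 in knockout and at 5.62, 5.33 and 4.65 in wild type. Each genotype had 1 high and 1 low array, knockout replicates 3 and 1 and wild type replicates 1 and 3. The difference was -0.09 (SE 0.32, interval -0.85 to 0.67), and it was 0.12 once wild type replicate 1 was left out. Twist proteins bind DNA as dimers with the E proteins Tcf3, Tcf4 and Tcf12, and the Id proteins block such dimers. Of these 7 partners and inhibitors 0 passed, 3 had a higher and 4 a lower mean in knockout, and the median difference was -0.12. Id3 and Id1 differed by -0.54 (SE 0.35) and -0.48 (SE 0.41), and Tcf3 and Tcf12 by -0.34 (SE 0.52) and -0.12 (SE 0.34). Wild type replicate 1, the highest array for 25.3% of all genes, was the highest for 6 of the 7, and without it the median difference was 0.21.

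Among 28 other mesenchymal transcription factors 0 passed, 18 had a higher and 10 a lower mean in knockout, and the median difference was 0.056, or -0.032 without wild type replicate 1. Msx2, a homeobox gene also active in hair follicles, differed by -1.37 (SE 0.70) and stood at 6.08 on wild type replicate 1 against 2.44 to 3.24 elsewhere. Without that array its difference was -0.39. Sox9 differed by -0.28 (SE 0.19), Tbx15 by 0.24 (SE 0.16) and Meox2 by -0.43 (SE 0.31).

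Crabp1, which binds retinoic acid in the cytosol, was high on a single array. It stood at 4.12, 4.69, 3.65 and 4.12 in knockout and at 5.89, 3.98 and 3.98 in wild type. Wild type replicate 1 was 3.78-fold above replicate 2, while the other 2 wild type arrays lay within the knockout range. The difference of -0.47 (SE 0.50, interval -1.65 to 0.71) became 0.17 without wild type replicate 1. Genes of retinoid handling were measured in 16 cases, of which 3 had a higher and 13 a lower mean in knockout, 0 passed, and the median difference was -0.11. Dhrs3, a retinaldehyde reductase, had an unadjusted p of 0.0141 and an adjusted p of 0.9995 in limma, with a difference of -0.62 (SE 0.19). Its knockout arrays lay between 4.86 and 5.15 and its wild type arrays between 5.34 and 6.05, so they did not overlap. Stra6, a retinol transporter, did not overlap either, at -0.56 (SE 0.24). The gap was small, with knockout up to 3.76 and wild type replicate 2 at 3.80. With that replicate as the only wild type array the Stra6 difference was -0.16. The genotypes did not overlap in 2 of the 16 genes, and in 1.91% of all genes. Aldh1a2, which makes retinoic acid, differed by 0.42 (SE 0.20). Lrat, which esterifies retinol, differed by -0.52 (SE 0.31), or by 0.17 with wild type replicate 2 as the only wild type array. In 8 of the 16 wild type replicate 1 was the highest array, as it was for 25.3% of all genes. Without that array the median difference of the 16 was -0.061.

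Crabp1 was high on the same array as hair follicle genes. Hair follicle matrix and shaft markers had a score of 3.14 on wild type replicate 1, against 0.064 and -0.73 on the other wild type arrays and -1.20 to -0.14 in knockout, and that array was the highest for 15 of 15. All 15 had a lower mean in knockout, 0 passed, and their mean level ran from 3.79 to 4.84 in knockout and from 4.26 to 8.13 in wild type. Krt25, an inner root sheath keratin, was at 10.61 on wild type replicate 1. Genes of the dermal papilla itself had a score of -0.041 on wild type replicate 1, within the range of the other arrays, -0.14 to 0.13. Their mean level was 3.58 to 3.72 in knockout and 3.68 to 3.85 in wild type, near the median of all values, 3.60. At such a level the score may miss a change in papilla RNA. Of those 13 genes 0 passed, 5 were higher and 8 lower in knockout, and the median was -0.13. Corin, a protease of the dermal papilla, had an unadjusted p of 0.0445 and an adjusted p of 0.9995 in limma, at -0.39 (SE 0.16). Its genotypes did not overlap, as in 1 of the 13 genes and in 1.91% of all genes. Vcan, a large proteoglycan, differed by -0.52 (SE 0.38), Hhip, a hedgehog inhibitor, by -0.21 (SE 0.18), and Bmp4 by 0.19 (SE 0.17). The part of hair follicle or dermal papilla RNA in the Crabp1 value was not tested.

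The SD among wild type arrays exceeded the size of the genotype difference in every fibroblast gene. That among knockout arrays was below it in Dpt, Twist1, Crabp1 and Fap. The joint score of the members was -0.26, -0.02, 0.37 and 0.074 on knockout replicates 1 to 4, and 0.39, 0.051 and -0.60 on wild type replicates 1 to 3. The top pair was thus wild type replicate 1 with knockout replicate 3, and the bottom pair wild type replicate 3 with knockout replicate 1. Knockout replicate 3 was the highest of the 7 arrays for 6 members, Pi16, Clec3b, Twist1, Twist2, Prrx1 and Cd34, where it was highest for 10.1% of all genes. It was also the lowest for Crabp1. Knockout replicate 1 was the lowest for Pi16, Clec3b and Prrx1, where it was lowest for 7.97% of all genes. Wild type replicate 3 was the lowest for Dpp4, Dpt, Cd34 and Fap, where it was lowest for 19.2% of all genes. Wild type replicate 1 was the highest for Dpp4, Dpt and Crabp1 and the lowest for Twist1. Over all genes it was highest for 25.3% and lowest for 39.1%.

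**Figure D3:**
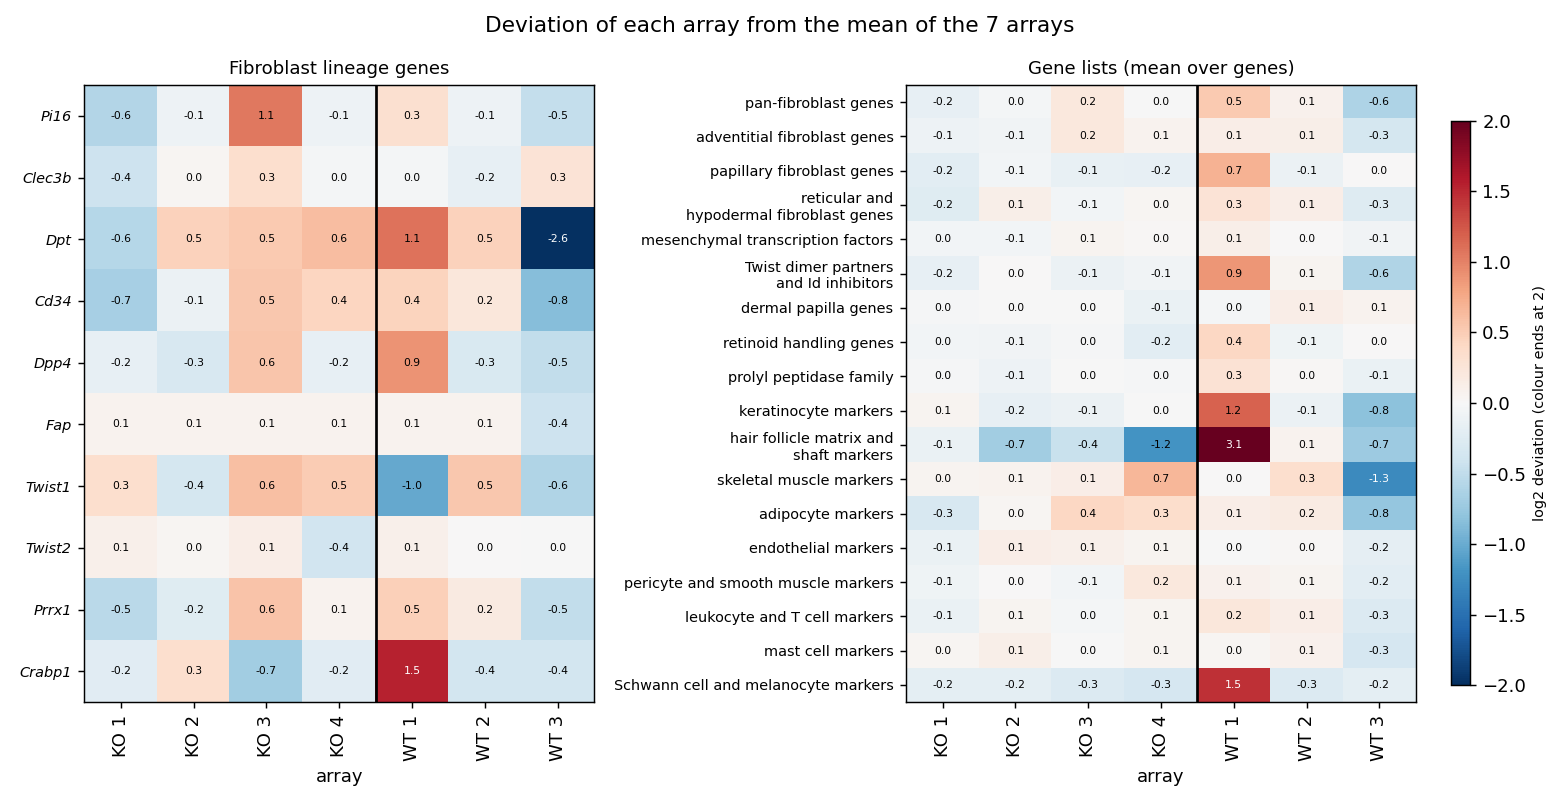
Deviation of each array from the mean of the 7 arrays (log2, colour ends at 2) for the 10 fibroblast genes on the left and, as means over genes, for the lists of other fibroblast genes and other cell types on the right; a black line parts knockout (KO) from wild type (WT). Dpt is low on WT 3 and Crabp1 high on WT 1, and the hair follicle score of 3.14 on WT 1 exceeds every other list score.

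Of 45 pairs of members, 36 correlated above 0 across the 7 arrays, with a median r of 0.238. These are descriptions over 7 points that come from 1 deposited table and include both arrays of unusual spread. Prrx1 and Cd34 had r of 0.931 (Spearman's rho 0.929), and 0.867 without knockout replicate 1 and wild type replicate 3, the arrays farthest from the Prrx1 median. Pi16 and Prrx1 had r of 0.886 (rho 0.883), and 0.905 without knockout replicates 1 and 3. Dpt and Cd34 had r of 0.871 (rho 0.893), which dropped to 0.454 without knockout replicate 1 and wild type replicate 3, so that relation rests on those arrays. The fourth pair at 0.85 or more, Dpt and Fap at 0.916, rests on wild type replicate 3 alone, since Fap is constant on the others. Twist1 and Crabp1 had the lowest r, -0.784 (rho -0.775), and -0.928 over the 5 arrays without wild type replicates 1 and 3. The relatives Twist1 and Twist2 had r of -0.275 (rho 0.0714), but Twist2 was dim and ranged over only 0.52 log2 units. In the promoter windows, Prrx1 and Cd34, the pair with the highest r, both lacked CANNTG. So did Twist1 and Crabp1, the pair with the lowest r, and Twist2. Dpt had 7 matches, and Pi16, at r of 0.886 with Prrx1, had 1. Whether these matches bear on expression was not tested.

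**Figure D4:**
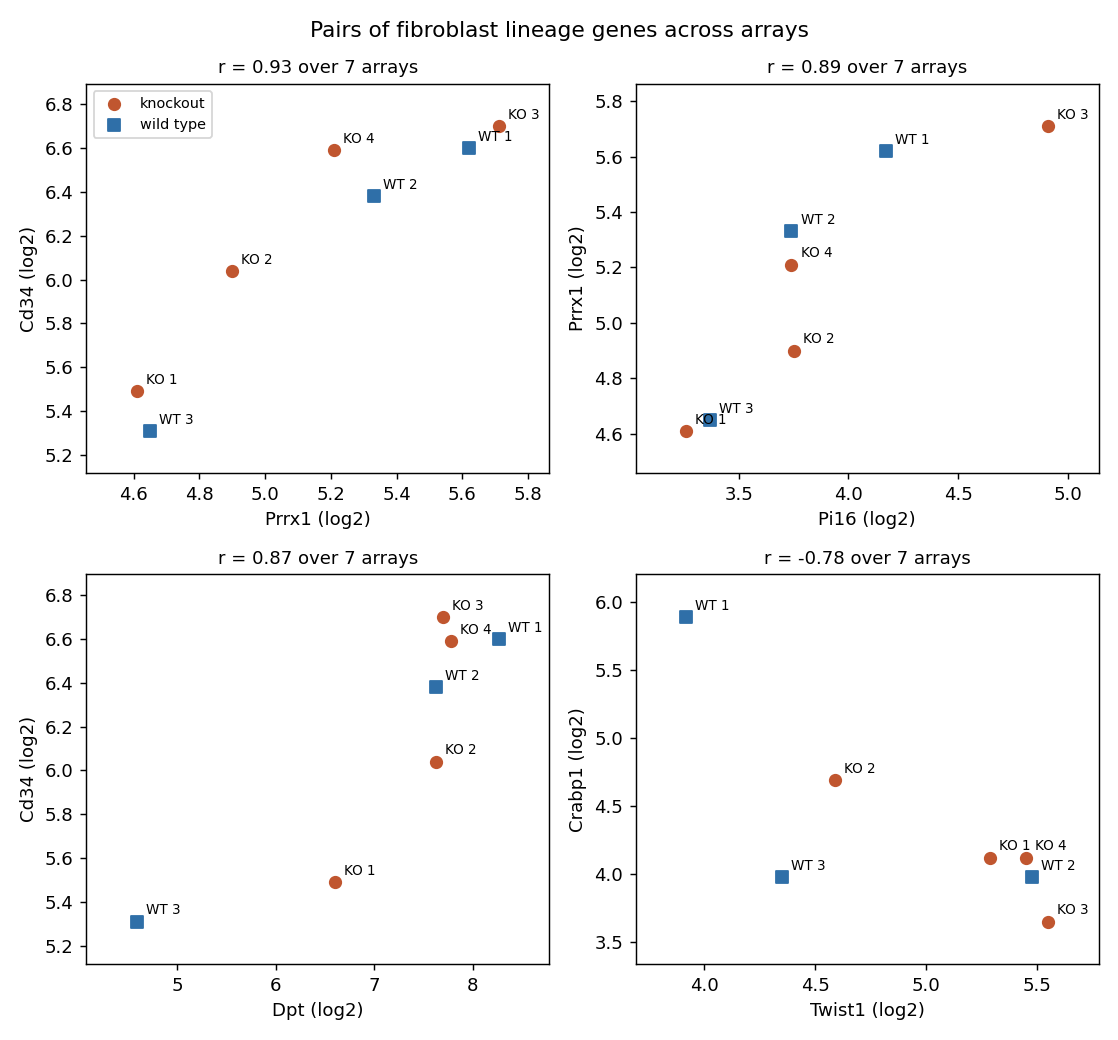
Log2 levels of 4 pairs of fibroblast genes, 1 point per array, with knockout (KO) as orange circles and wild type (WT) as blue squares. KO 1 and WT 3 lie at the low end and KO 3 and WT 1 at or near the high end for Prrx1 against Cd34 and Pi16 against Prrx1, and Crabp1 is highest where Twist1 is lowest, on WT 1.

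Other fibroblast genes were taken from lists of textbook markers without the 10 members. Over these lists, with the transcription factors, partners, peptidases, papilla and retinoid genes counted in, 139 of 146 genes were measured and 0 passed. An unadjusted p under 0.05 was found for 5 of them, 3.60%, where 1.88% of all genes had one. Pan-fibroblast genes had a higher mean in knockout in 7 of 21 and a lower one in 14, with a median of -0.13, which was 0.11 without wild type replicate 1 and -0.37 without replicate 3. Mfap4, a microfibril protein, differed by 0.67 (SE 0.27), with an unadjusted p of 0.04 and an adjusted p of 0.9995 in limma. Serpinf1, an antiangiogenic serpin, differed by 0.68 (SE 0.36), Pdgfra, the platelet-derived growth factor receptor of fibroblasts, by -0.31 (SE 0.15), and Lrp1, an endocytic receptor, by -0.50 (SE 0.33). Their score by array was -0.17, -0.04, 0.21 and -0.00066 in knockout and 0.53, 0.093 and -0.62 in wild type, the same order at both ends of each genotype as the score of the 10 genes.

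Adventitial genes had a higher mean in knockout in 14 of 22 and a lower one in 8, with a median of 0.071, which was -0.11 without wild type replicate 3. Ly6c1, a surface protein also of endothelium and monocytes, had an unadjusted p of 0.0238 and an adjusted p of 0.9995 in limma, at 0.70 (SE 0.25) and without overlap of the genotypes. Its knockout arrays stood at 4.30, 4.09, 3.80 and 3.85 and its wild type arrays at 2.80, 3.39 and 3.73. Procr, the protein C receptor, did not overlap either, at -0.35 (SE 0.15), with knockout up to 3.37 and wild type from 3.41. The genotypes did not overlap in 2 of the 22 genes, and in 1.91% of all genes. Cd55, a complement inhibitor of Pi16-positive cells, differed by 0.78 (SE 0.47), or by -0.41 with wild type replicate 2 as the only wild type array. Creb5 differed by -0.64 (SE 0.52), or by 0.061 without wild type replicate 1, where it was at 7.68. Of these 22 genes, 7 were highest on wild type replicate 1 and 5 on knockout replicate 3, the array highest in Pi16. Over all genes the shares highest on these arrays were 25.3% and 10.1%. Wild type replicate 3 was the lowest for 11, and for 19.2% of all genes.

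Papillary genes had a lower mean in knockout in 11 of 14 and a higher one in 3, with 0 called and a median of -0.27. Wild type replicate 1, the highest array for 25.3% of all genes, was the highest for 7 of the 14, and without it the median was -0.10. Ptgds, prostaglandin D synthase, was at 6.94 on that array and at 3.17 to 3.64 on the others, and its difference of -1.31 (SE 0.82) became -0.14 without it. Trps1 differed by -0.71 (SE 0.35), Lrig1 by -0.49 (SE 0.30) and Ntn1 by -0.32 (SE 0.20). Reticular and hypodermal genes were lower in 8 of 11 and higher in 3, with 0 called and a median of -0.10, which was 0.015 without wild type replicate 1. Thbs2, a matricellular thrombospondin, had an unadjusted p of 0.0196 and an adjusted p of 0.9995 in limma, at -0.61 (SE 0.20), with knockout values of 3.91 to 4.25 against 5.02, 4.68 and 4.25 in wild type. Dlk1, an inhibitor of fat cell formation, differed by 0.38 (SE 0.23), Col14a1 by -0.24 (SE 0.17) and Tgm2, a transglutaminase, by -0.24 (SE 0.19).

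Markers of other cells that could add to these genes were read beside them, and 0 passed. Endothelial markers, which bear on Cd34, had a higher mean in knockout in 5 of 12, a median of -0.0093 and mean levels of 4.19 to 4.46 in knockout and 4.14 to 4.34 in wild type. Their score was lowest on the 2 arrays low in Cd34, at -0.18 on wild type replicate 3 and -0.13 on knockout replicate 1. On the other arrays it ran from -0.014 to 0.14. Wild type replicate 3 was the lowest for 3 of the 12 and the highest for 2, and knockout replicate 1 was the lowest for 1 and the highest for 1. Single markers differed: Pecam1, an endothelial adhesion molecule, was at 4.72 on wild type replicate 3 and 5.67 on knockout replicate 1, its lowest values, while Robo4, a guidance receptor of endothelium, was at 3.80 and 3.85 on them, above both other wild type arrays. Cdh5, the endothelial cadherin, was at 5.41, 5.86, 6.46 and 6.46 in knockout and at 5.67, 5.48 and 5.16 in wild type. Its lowest values were thus also on wild type replicate 3 and knockout replicate 1. Mast cell markers were higher in 7 of 10, with mean levels of 3.68 to 3.80 in knockout and 3.34 to 3.76 in wild type, and Cpa3, a mast cell protease, was at 5.49 on wild type replicate 3 and 6.86 to 7.56 elsewhere. Leukocyte and T cell markers, which bear on Dpp4, were higher in 5 of 12, with mean levels of 4.15 to 4.34 in knockout and 4.00 to 4.51 in wild type. The part of endothelial or mast cell RNA in the Cd34 values was not tested. Cd3d, a chain of the T cell receptor complex, was at 3.15 to 3.64 in knockout and at 2.66 to 3.01 in wild type, a difference of 0.58 (unadjusted p = 0.0134, adjusted p = 0.9995 in limma). On knockout replicate 3, where Dpp4 was high, the T cell genes named here differed in rank by small steps. Cd3d was at 3.15, the lowest of the knockout arrays. Cd3g, another chain of that complex, was at 4.39, the highest of the 7 arrays, next to 4.33 on knockout replicate 1. Cd4, the coreceptor, was at 3.12, the highest of the knockout arrays, next to 3.05 on knockout replicate 4. Cd3d and Cd4 were dim on knockout replicate 3, below the median of all values, 3.60. That array was the highest for 1 of the 12 and the lowest for 0, and the part of T cell RNA in the Dpp4 values was not tested. Itgam, a myeloid integrin, differed by -0.55 (SE 0.22), and Krt33b, a hair keratin, by -0.40 (SE 0.17).

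Several lists were high or low on the 2 wild type arrays that stood apart. On wild type replicate 3, where Dpt was low, keratinocyte markers scored -0.82 (lowest array in 11 of 13), skeletal muscle markers -1.27 (11 of 12) and adipocyte markers -0.78 (6 of 9). Keratinocyte markers had mean levels of 6.50 to 6.72 in knockout and 5.85 to 7.85 in wild type, with 3 of 13 higher. Muscle markers were at 8.01 to 8.63 and 6.69 to 8.30, with 11 of 12 higher, and adipocyte markers at 6.12 to 6.86 and 5.66 to 6.62, with 7 of 9 higher. Pericyte and smooth muscle markers scored -0.21 on that array, with 7 of 11 higher and levels of 4.88 to 5.18 and 4.76 to 5.05. On wild type replicate 1, where Crabp1 and Dpp4 were high, keratinocyte markers scored 1.18 and Schwann cell and melanocyte markers 1.46, the latter with 2 of 7 higher and levels of 3.97 to 4.12 and 4.04 to 5.76. The part of these cells, or of the array's spread of values, in the Dpt, Crabp1 and Dpp4 values was not tested. Over all genes, 67.6% lay outside the range of the 5 alike arrays on wild type replicate 1 and 53.7% on replicate 3; of the 10 fibroblast genes 4 did so on replicate 1 and 5 on replicate 3.

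In the RefSeq gene table Prrx1, Dpt, Cd34 and Twist2 share chromosome 1 with Tnfsf4, the targeted gene. Between Tnfsf4 and Prrx1 lie 17 protein-coding genes and between Tnfsf4 and Dpt 33. Between Tnfsf4 and Cd34 lie 317 and between Tnfsf4 and Twist2 346. None of those measured passed in limma. An unadjusted p under 0.05, which 1.88% of all genes had, was found for 0 of 29 measured between Tnfsf4 and Dpt, 2 of 290 between Tnfsf4 and Cd34 and 7 of 321 between Tnfsf4 and Twist2.

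The gene whose profile over the 7 arrays was most like that of each member was sought among 11587 genes of above-median level. It was Usf2 for Dpt (r = 0.995), U2af1l4 for Cd34 (0.988), Tgfbr2 for Pi16 (0.98) and Wdr81 for Clec3b (0.979). It was Mmachc for Dpp4 (0.991), Tle1 for Twist1 (0.975), Nprl2 for Twist2 (0.974), Rgl1 for Prrx1 (0.973) and Timm50 for Crabp1 (0.994). Such values were common for some members: 165 genes reached r of 0.95 with Dpt, 46 with Crabp1 and 3 with Prrx1. Over the 5 alike arrays the r of these pairs was between 0.959 for Dpt and 0.996 for Pi16. Those 5 are among the 7 arrays by which the pairs were chosen, so this is no independent check. For Fap no likeness is given, since its value changes on 1 array only.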

How the data were processed

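Per the labels' protocols, RNA was extracted from skin with the RNeasy Mini kit and DNase treatment and labelled with biotin for Affymetrix arrays. The deposited table holds log2 values, which the authors obtained with RMA (robust multi-array average), as named in the submitters' processing notes. Its version, probe-set definition and build are not given in the sources used here. Values were used as deposited. Of 25206 probe sets, 23185 had 1 gene symbol in the platform annotation and were tested, and no gene had a second probe set.

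The 7 arrays were fitted by genotype (lmFit and eBayes of limma 3.58.1, R 4.3.3, two-sided), with Benjamini-Hochberg adjustment over the 23185 genes at 0.05 and no filter on dim genes. Gene lists were given by counts and medians, without a set test. A list score is the mean over genes of an array's deviation from the mean of the 7 arrays. The fit was tested on simulated data with independent noise, equal in spread on all arrays for a given gene. Unequal spread between arrays was thus not covered. The members and lists were chosen with earlier results of these data known. Named genes were the 10 members, up to 4 genes of each list by smallest p, Tnfsf4, the tissue markers, the neighbour Gcg and, for each member, the most correlated gene. Plots used matplotlib 3.10.9 under Python 3.11.15. Alternatives were moderation with an intensity trend, filters on the dimmest 30% or 50% of genes, renormalization, array SD as a covariate, array weights, blocks, all probe sets and left-out arrays. The number of arrays limits the precision, and no measure of signal over background was used.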

Additional observations from a re-analysis of the deposited data

Results flagged for a closer look

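Among the 4 knockout arrays, 28 sets of values (9 fibroblast genes and 19 gene scores) were searched for a single array far from the rest, with the gap over the range compared with Dixon's critical value for 4 samples; chance gives about 1 in 20. Dpt was at 6.60 on knockout replicate 1, against 7.63 to 7.78 on the other knockout arrays (gap over range 0.872). The score of dermal papilla genes was -0.14 on knockout replicate 4, against -0.019 to -0.0028 (0.874). The score of skeletal muscle markers was 0.67 on the same array, against 0.048 to 0.13 (0.862). The cause of these 3 was not tested.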

How the results depend on the processing

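Under the 19 alternatives tried, all planned, 0 members passed an adjusted p under 0.05 in limma, and the smallest was 0.265 (Dpp4 with array weights). Signs held less well: of 188 member values 36 changed sign. Array SD as a covariate gave 0.079 for Dpp4 and 0.015 for Prrx1, and quantile normalization again gave 0.12 and 0.059. Array weights gave wild type replicate 2 a weight of 75.4 and replicates 1 and 3 0.106 and 0.109, and the differences were 0.29 for Dpp4, -0.19 for Dpt, 0.17 for Clec3b, -0.28 for Twist1, 0.18 for Crabp1 and -0.17 for Cd34. With wild type replicate 2 as the only wild type array (its spread is taken to equal that of knockout) they were 0.28, -0.20, 0.16, -0.26, 0.17 and -0.17. The code number as a block compares only knockout replicate 3 with wild type replicate 3 and gave 1.04 for Dpp4, 0.072 for Clec3b, 0.15 for Twist2 and 1.06 for Prrx1, with a median over the members of 1.05. The replicate block gave 0.056 for Twist2 and -0.019 for Cd34 and left 0 members called; it drops knockout replicate 4, which has no partner. Same-numbered arrays deviated with r of -0.0858, -0.145 and 0.0341, and 1 of 6 arrays correlated best with its own number, so the numbers were not taken as pairs, and the block took the calls over all genes from 1 to 0. With single arrays left out, differences ran from -0.32 to 0.37 for Dpp4, -0.52 to 1.32 for Dpt, -0.18 to 0.37 for Pi16, -0.16 to 0.095 for Clec3b, -0.12 to 0.056 for Twist2, -0.36 to 0.12 for Prrx1, -0.79 to 0.17 for Crabp1 and -0.28 to 0.36 for Cd34. The count of members without overlap ran from 0 to 1 (Twist1 without wild type replicate 2). Filters on the dimmest 30% or 50% of genes removed Twist2. For the 18 lists, 42 of 342 medians had the other sign, and 20 moved by more than 1 SD of the list's score within genotypes. Over all genes the calls were 4032 with array weights, against 1 in the reported fit and 0 or 1 in the other 18 settings; the cause was not tested.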
